A study of Homo sapiens with 12 samples.

Results

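Genes for 8 short-lived transcription regulators were followed through 12 RNA-Seq libraries of HEK293T cells: the MYC family members MYC and MYCN, the inhibitors of DNA binding ID1, ID2 and ID3, the Notch-responsive repressor HES1, and the zinc-finger factors KLF6 and KLF10. These 8 were picked by name out of 58735 genes in the count and FPKM tables, because their mRNAs are known to be unstable and because MYC had been seen to be lower with CEP in these same data. MYC's comparisons of libraries with CEP against libraries without it are therefore described here without a test. Its comparisons with 4SU, and whether its change with CEP differed in the presence of 4SU, were tested. HEK293T is a human embryonic kidney line that carries adenoviral genes and the SV40 large T antigen. The 4 groups of 3 libraries were the vehicle DMSO, a clickable electrophilic purine (CEP, the cysteine-reactive probe AHL-Pu-1, for 1 h at 37 °C), 4-thiouridine (4SU, 100 µM for 16 h) and both agents (CEP+4SU). The study's design text gave the CEP dose as 25 µM, whereas the protocol on the samples read 25 mM. That protocol, the same for all 12 samples, washed the cells, crosslinked them on ice with 312 nm UV and then added CEP in serum-free medium. It did not say whether cells without 4SU were irradiated, or whether cells without CEP were moved to serum-free medium. Replicates were described as independent, in 1 cell line.

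MYC and MYCN are basic helix-loop-helix leucine zipper proteins that pair with MAX at E-boxes and drive growth genes. The ID proteins have a helix-loop-helix but no DNA-binding region, so they titrate E proteins such as TCF3, and their genes are induced through BMP receptors and SMADs. HES1 is a repressor that Notch activates through RBPJ and that shuts off its own promoter, while KLF10 is an early gene of TGF-beta signalling and KLF6 responds to serum, growth factors and stress. Their mRNAs are made and destroyed quickly, so that the level of each follows its transcription closely, and AU-rich elements built on AUUUA in the 3′ untranslated region are a common mark of such mRNAs. 4SU is a uridine analog that cells build into new RNA.

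Depth ran from 16569114 to 24644734 counts on genes per library. CEP replicate 2 and CEP+4SU replicate 2 had counts on fewer genes (22230 and 22627) than the other 10 libraries (24376 to 25869), so members' values were also computed without them. Of 12 kidney lineage markers, 6 averaged 1 CPM or more, PAX2 and WT1 among them (CPM are counts scaled to a common library size with TMM factors), with sums of 109 to 121 CPM, whereas CDH16 and UMOD of the mature tubule were at 0 in every library. Of 7 markers of other cell types, COL1A1 alone reached that level, and the sum over the list was 31.8 to 42.3 CPM without CEP and 28.7 to 36.8 CPM with it. The part of these markers in the results was not tested.

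The AUUUA pentamer was counted as ATTTA in the 3′ untranslated region of 1 complete coding transcript per gene in GENCODE 29 (the principal one, or the longest of these), and 30-base windows that hold it are shown for the ID genes and KLF6, with each ATTTA in capitals.
ID1: tattaaacaaataATTTAgatggtggtaaa
ID2: cgttATTTAtgaaaaagacttttaaatgcc
ID3: cctgATTTAtgaactctataatagagtata
KLF6: gtgtATTTAcaaatataacacaacaATTTA
The windows start at base 392 of the 3′ untranslated region in ID1, 206 in ID2, 372 in ID3 and 717 in KLF6. At least 1 copy is held by 7 of the 8 members, beside 69.9% of 13807 tested coding genes.

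MYC packs 4 copies into 476 bases, or 8.40 per kb, and 98.1% of those genes have fewer per kb. ID2 has 3 copies (3.87 per kb), KLF10 also 3 (2.22 per kb), and MYCN 2 (2.20 per kb). KLF6 has 6 copies, but over 3543 bases (1.69 per kb, near the median of all genes at 1.60). ID1 and ID3 have 1 copy each, and HES1 has 0 in 499 bases. The longer nonamer TTATTTATT was found in 0 members and in 8.59% of the coding genes. Members that share the label of unstable mRNA thus differ in this count. Uridine, the base that 4SU replaces, makes up 21.1% to 27.5% of the members' transcripts, beside a median of 24.6% over the coding genes.

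Promoters from RefSeq (GRCh38.p14, 250 bases before to 50 after the start) were at hand for 6 of the 8 members. They are shown up to the start for HES1 and for HES5, the other Notch target described below, with the core of the RBPJ motif (TGGGAA, either strand) in capitals, and for ID1 and ID3, whose ratio is described below, with the TATA box (TATAAA, either strand) in capitals. The HES1 promoter is chr3:194135898-194136147, plus strand.
HES1: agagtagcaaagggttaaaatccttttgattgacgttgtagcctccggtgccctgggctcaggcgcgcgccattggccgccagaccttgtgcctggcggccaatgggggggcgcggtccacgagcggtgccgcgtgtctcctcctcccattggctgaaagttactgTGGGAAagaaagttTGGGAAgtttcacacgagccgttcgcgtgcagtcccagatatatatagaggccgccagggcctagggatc
The HES5 promoter is chr1:2530264-2530513, minus strand.
HES5: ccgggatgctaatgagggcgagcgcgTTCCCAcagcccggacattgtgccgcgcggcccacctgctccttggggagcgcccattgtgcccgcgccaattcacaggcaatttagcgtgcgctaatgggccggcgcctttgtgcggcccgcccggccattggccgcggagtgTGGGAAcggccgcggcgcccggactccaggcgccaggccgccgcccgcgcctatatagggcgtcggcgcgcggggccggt
The ID1 promoter is chr20:31605039-31605288, plus strand.
ID1: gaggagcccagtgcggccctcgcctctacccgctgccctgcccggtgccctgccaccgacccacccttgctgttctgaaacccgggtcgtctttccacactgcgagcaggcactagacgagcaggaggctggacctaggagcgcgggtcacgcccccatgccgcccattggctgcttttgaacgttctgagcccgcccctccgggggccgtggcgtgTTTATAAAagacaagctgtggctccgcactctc
The ID3 promoter is chr1:23559502-23559751, minus strand.
ID3: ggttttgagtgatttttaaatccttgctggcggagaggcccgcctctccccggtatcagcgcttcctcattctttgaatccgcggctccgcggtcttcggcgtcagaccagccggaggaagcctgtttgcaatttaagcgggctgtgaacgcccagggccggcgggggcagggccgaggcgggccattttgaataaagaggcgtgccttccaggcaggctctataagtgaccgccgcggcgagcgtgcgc
Both HES promoters hold 2 copies of TGGGAA. The MYCN promoter, not shown, holds 1. At least 1 copy is in 24.3% of 27305 promoters, and the share with 2 was not computed. TATAAA has 2 overlapping matches in ID1, on opposite strands, 0 in ID3, and is in 11.95% of promoters. The E-box CACGTG, bound by MYC and MAX, has 1 match among the 6 members' promoters, in KLF6, and is in 7.43% of promoters. A match is a description of the letters only.

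Levels were compared between genes per length, as FPKM. In DMSO, ID2 was at 163 ± 3.54 FPKM (SD, n = 3), followed by MYC at 86.8 ± 3.17, ID3 at 62.3 ± 3.49, HES1 at 19.7 ± 1.40, ID1 at 19.1 ± 2.23, KLF10 at 8.997 ± 1.06 and KLF6 at 5.97 ± 0.339. MYCN stood far below, at 0.233 ± 0.0132 FPKM, with 3 to 20 counts in any library. HES1 and ID1 overlapped in DMSO and all other neighbours in the order did not. The order was the same with 4SU alone.

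With CEP the means of HES1 and ID1, which overlapped in DMSO, traded places. The order carries no test. ID1 had the higher mean of that pair with CEP (22.1 FPKM beside 15.4 for HES1, overlapping) and with CEP+4SU (24.2 beside 17.6, not overlapping). HES1 overlapped KLF10 with CEP, where it ranged from 10.5 to 19.2 FPKM and KLF10 from 10.5 to 11.7. That overlap rests on CEP replicate 2, a library with fewer genes. In replicates 1 and 3 HES1 was at 16.6 and 19.2 FPKM. The ranges of MYC and ID3 overlapped with CEP+4SU, at 60.8 to 73.6 FPKM beside 43.1 to 64.5. Within each of these libraries MYC was still above ID3 (73.6 beside 64.5, 60.8 beside 43.1, and 63.4 beside 57.7). MYC was chosen for being lower with CEP, so this overlap is a description only.

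**Figure D1:**
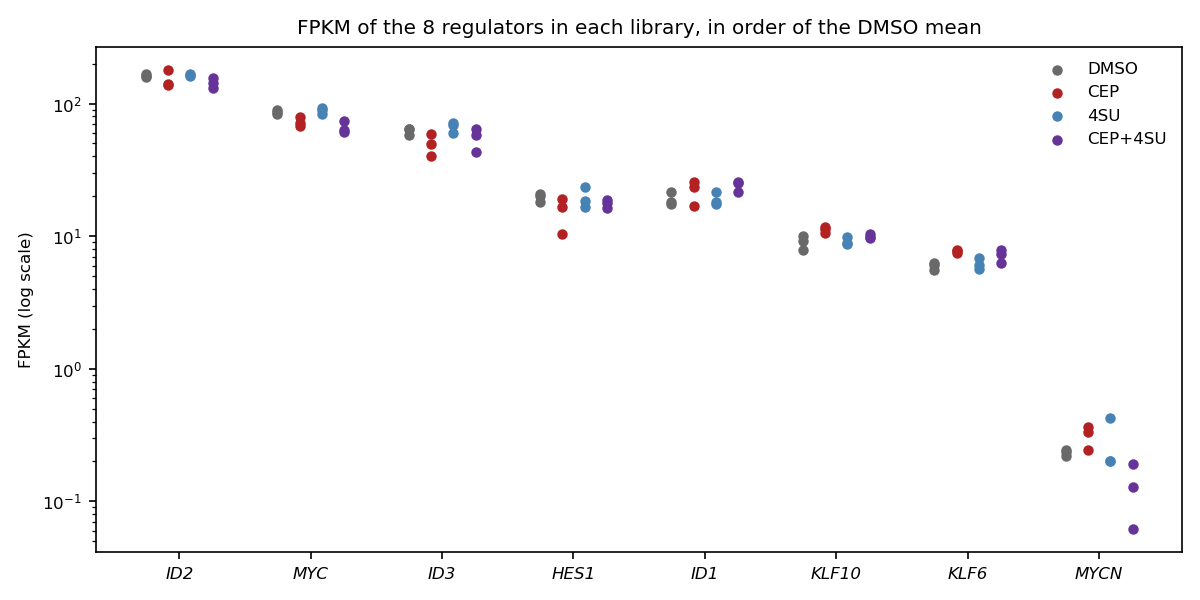
FPKM (log scale, vertical) of each regulator (horizontal, in order of the DMSO mean), with 1 point per library and a colour per group. ID2, MYC and ID3 lead in every library, the means of ID1 and HES1 trade places with CEP, and MYCN lies below 1 FPKM in all 12 libraries.

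The first comparison asked how the members differed with CEP, over 6 libraries with it and 6 without, averaged over the presence of 4SU. MYC was lower with CEP, KLF6, KLF10 and ID1 had positive log2 fold changes of 0.23 to 0.30, and ID2, ID3, HES1 and MYCN negative ones of -0.14 to -0.33. With edgeR's quasi-likelihood test and Benjamini-Hochberg adjustment over 17729 genes, 0 of the 7 members other than MYC were past the threshold of 0.05 (adjusted p 0.0596 to 0.629), beside 0.276% of all genes, and 5 of the 7 had an unadjusted p under 0.05, beside 24.3% of all genes. DESeq2 called 3 of the 7, ID3, KLF6 and KLF10, and gave MYCN no adjusted p, beside 14.6% of the genes it adjusted. limma on log2(FPKM + 1) called 0, beside 0.0765%. By edgeR, the share of all genes past the threshold rose to 11.8% without CEP replicate 1 and to 6.16% without CEP+4SU replicate 1, and was 0.361% with the trend of fold changes with GC content removed and 0.337% without CEP replicate 2 and CEP+4SU replicate 2. It was 1448 of 35634 genes without the low-count filter. Of 17729 genes it was 2269 with a replicate block in the model, and 67 with that block and the GC trend removed. The calls under these settings named below stand beside those shares. The median size of the log2 changes was 0.29 over all 8 members and 0.15 over all genes. The former includes MYC, which was chosen for its change with CEP, so it is a description without a test. In bulk RNA, fewer cells of a kind and less RNA per cell cannot be told apart.

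MYC (chromosome 8) was at 253, 262 and 274 CPM in the DMSO libraries and at 281, 253 and 268 CPM in those with 4SU. It was at 242, 217 and 207 CPM with CEP and at 223, 184 and 192 CPM with CEP+4SU. All 6 CEP libraries were thus below all 6 others, the pattern for which MYC was chosen. In the other 7 members the ranges with and without CEP overlapped, beside 1.73% of all genes without overlap. The log2 fold change was -0.33 (SE 0.0587), that is 20.6% lower. Removing the GC trend took it to -0.22, and leaving out the pair of libraries with fewest genes took it to -0.30. MYC's dimerization partner MAX was level, with a log2 fold change of -0.03, and the MYC to MAX ratio of FPKM was 5.29 to 5.95 in the 6 libraries without CEP, 4.47 to 5.28 with CEP and 3.95 to 4.35 with CEP+4SU.

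MYCN (chr2:15940564-15947007, plus strand), the neural family member, was too low for a comparison of this size. It was at 0.572, 0.640 and 0.622 CPM in DMSO, 0.639, 0.884 and 0.949 with CEP, 0.530, 1.12 and 0.521 with 4SU, and 0.161, 0.335 and 0.502 with CEP+4SU. The 3 CEP+4SU libraries lay below all others, and the highest value was that of 4SU replicate 2. Its log2 fold change with CEP was -0.33 with an SE of 0.38, and a difference was not detectable at this depth. The antisense gene MYCNOS overlaps it by 1686 bases and had 0 to 6 counts. Whether the counting used the strand is not stated.

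**Figure D2:**
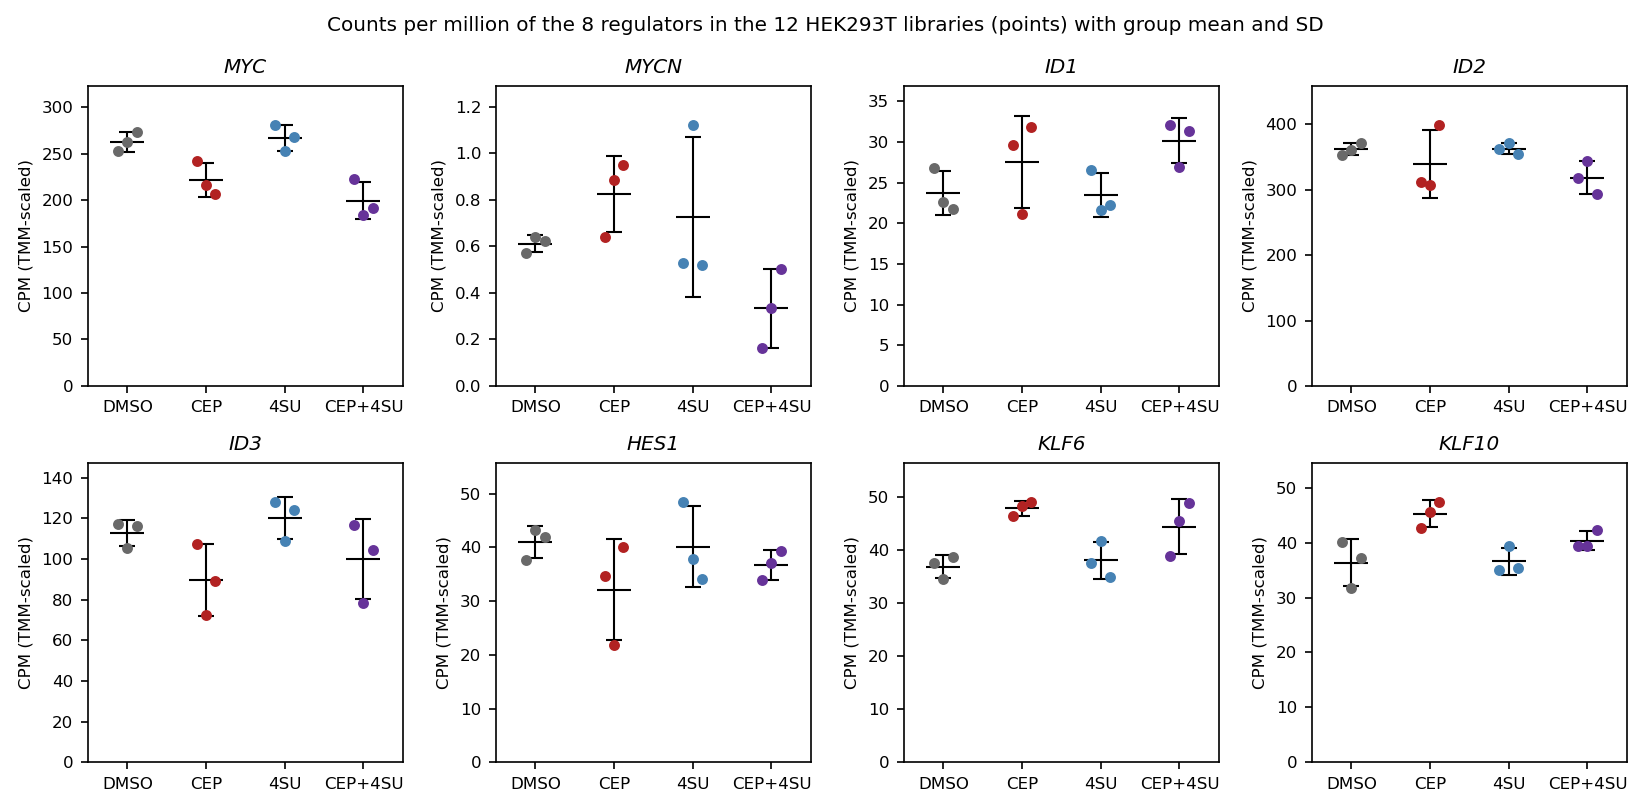
CPM (vertical, TMM-scaled, from 0) of each of the 8 regulators in the 12 libraries, by group (horizontal), with 1 point per library and the group mean and SD in black. MYC is lower in all 6 libraries with CEP, KLF6 and KLF10 lie above the mean of the other libraries in all 6, and the CEP replicate with the lowest ID1, ID3 and HES1 is replicate 2.

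The ID genes did not share a direction. ID1 (chr20:31605283-31606515, plus strand) was at 26.8, 22.6 and 21.8 CPM in DMSO and 26.6, 21.6 and 22.2 CPM with 4SU. With CEP it was at 29.6, 21.1 and 31.9 CPM, and with CEP+4SU at 32.1, 27.0 and 31.4 CPM. Of the 6 CEP libraries, 5 were above every library without CEP, and CEP replicate 2 was the lowest of the 12. The log2 fold change was 0.29 (SE 0.0994, adjusted p = 0.101 by edgeR), and it was past the threshold without CEP replicate 2 and CEP+4SU replicate 2 (0.40, adjusted p = 0.0276) and with the GC trend removed (0.42, adjusted p = 0.0155). ID1 also passed by edgeR without the low-count filter and with the replicate block, alone or with the GC trend removed.

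ID3 (chr1:23557918-23559794, minus strand) had a fold change of the opposite sign. It was at 117, 106 and 116 CPM in DMSO, 107, 72.4 and 89.3 with CEP, 128, 109 and 124 with 4SU, and 117, 78.2 and 105 with CEP+4SU. Replicate 2 was the lowest of each group, and the ranges with and without CEP overlapped. The log2 fold change of -0.30 (SE 0.0942, adjusted p = 0.0862 by edgeR) was -0.16 without the pair of libraries with fewest genes, -0.20 with the GC trend removed, and past the threshold with DESeq2 (adjusted p = 0.0242) and without CEP replicate 1 (adjusted p = 0.0170) or CEP+4SU replicate 1 (adjusted p = 0.0354). ID3 also passed by edgeR without the low-count filter and with the replicate block.

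ID2 (chr2:8678845-8684453, plus strand), the most abundant member, was at 353, 361 and 371 CPM in DMSO and 362, 372 and 354 CPM with 4SU. With CEP it was at 312, 308 and 399 CPM, and with CEP+4SU at 319, 344 and 294 CPM. CEP replicate 3 was the highest of all 12 libraries and the other 5 with CEP the lowest, and the log2 fold change was -0.14 (SE 0.0629, adjusted p = 0.184 by edgeR). The antisense gene ID2-AS1 shares 3019 bases with it and had 4 to 25 counts per library.

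As a within-library measure, the ratio of ID1 to ID3 in FPKM was 0.273 to 0.334 in DMSO and 0.261 to 0.302 with 4SU, against 0.401 to 0.520 with CEP and 0.400 to 0.503 with CEP+4SU. The 6 libraries with CEP did not overlap the 6 without. This ratio was chosen after the values had been seen and carries no test. The other ratios among the ID genes did overlap between the 6 libraries with CEP and the 6 without. ID1 to ID2 was 0.105 to 0.136 in DMSO, 0.104 to 0.131 with 4SU, 0.123 to 0.170 with CEP and 0.140 to 0.191 with CEP+4SU. The CEP+4SU libraries thus lay above all those without CEP, and those with CEP alone overlapped them. ID3 to ID2 was 0.359 to 0.406 in DMSO, 0.358 to 0.434 with 4SU, 0.275 to 0.423 with CEP and 0.279 to 0.450 with CEP+4SU. How often ratios of other gene pairs separate in this way was not computed.

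HES1 (chr3:194136145-194138732, plus strand) was at 37.6, 43.3 and 42.0 CPM in DMSO, 34.7, 21.8 and 40.0 with CEP, 48.5, 37.8 and 34.1 with 4SU, and 33.8, 37.0 and 39.3 with CEP+4SU. All 6 CEP libraries were below the mean of the others, but the ranges overlapped. The log2 fold change was -0.24 (SE 0.115, adjusted p = 0.212 by edgeR), and -0.13 without CEP replicate 2, which had the lowest HES1 value of all 12.

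Of the KLF genes, KLF6 (chr10:3775996-3785281, minus strand) was at 37.5, 34.5 and 38.8 CPM in DMSO and 37.5, 41.9 and 35.0 CPM with 4SU. It was at 46.4, 48.3 and 49.2 CPM with CEP and at 38.9, 45.6 and 49.0 CPM with CEP+4SU. All 6 CEP libraries were above the mean of the others, and 5 of them above every one. With a log2 fold change of 0.30 (SE 0.0715) KLF6 came nearest to the threshold of the 7 tested members (adjusted p = 0.0596 by edgeR), and it was past it with DESeq2 (adjusted p = 0.00910), with the GC trend removed (adjusted p = 0.0424), and without CEP replicate 1 (adjusted p = 0.0179) or CEP+4SU replicate 1 (adjusted p = 0.0289). KLF6 also passed by edgeR without the low-count filter and with the replicate block.

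KLF10 (chromosome 8) was at 40.1, 31.7 and 37.2 CPM in DMSO, 42.6, 45.6 and 47.4 with CEP, 35.0, 39.4 and 35.4 with 4SU, and 39.4, 39.3 and 42.3 with CEP+4SU. All 6 CEP libraries were again above the mean of the others, with DMSO replicate 1 and 4SU replicate 2 inside their range. Its log2 fold change was 0.23 (SE 0.0706, adjusted p = 0.0848 by edgeR), and it was past the threshold with DESeq2 (adjusted p = 0.0371) and without CEP replicate 1 (adjusted p = 0.0348). KLF10 also passed by edgeR with the replicate block. KLF6 and KLF10 kept a ratio of 0.610 to 0.756 in FPKM across the 12 libraries.

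**Figure D3:**
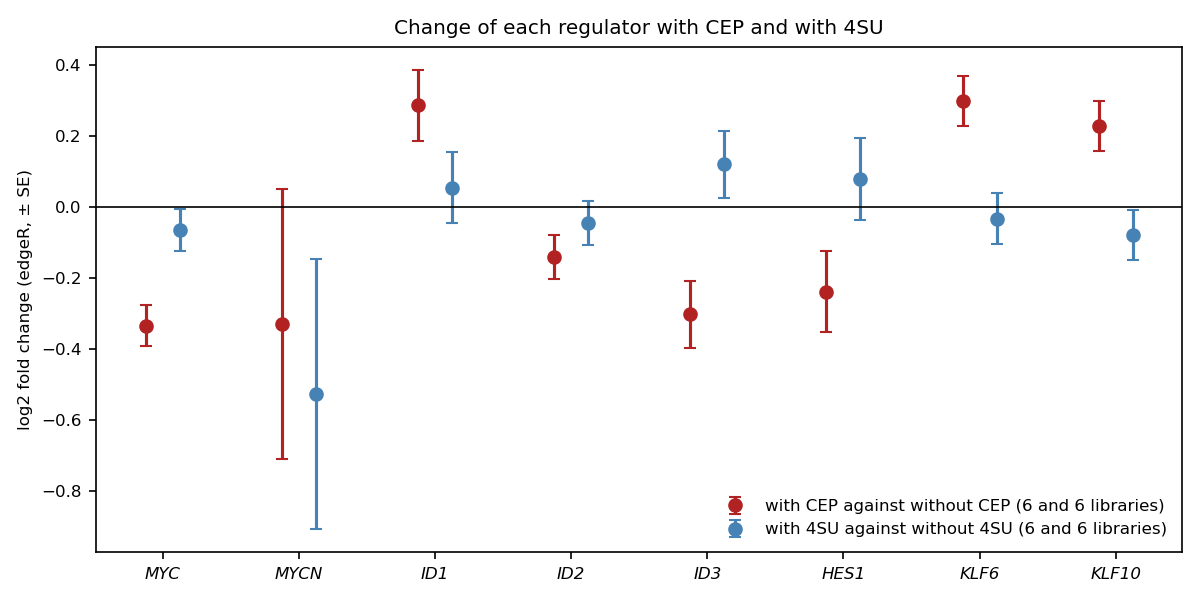
Log2 fold change (vertical, edgeR, with its SE as the bar) of each regulator with CEP against without (red) and with 4SU against without (blue), 6 libraries a side. MYC, MYCN, ID2, ID3 and HES1 lie below 0 and ID1, KLF6 and KLF10 above 0 with CEP, whereas with 4SU the 7 members other than MYCN lie between -0.08 and 0.12.

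CEP without 4SU was next compared with DMSO, the simplest form of the question. KLF6 and KLF10 were above all DMSO libraries, with log2 fold changes of 0.38 (SE 0.101) and 0.32 (SE 0.0994), and MYC was below all of them at -0.24 (SE 0.0829). Of the 7 members other than MYC, 2 did not overlap DMSO, beside 23.7% of all genes. HES1 (-0.34), ID3 (-0.33), ID1 (0.22), ID2 (-0.09) and MYCN (0.43, SE 0.52) overlapped it. By edgeR 0 of these 7 were past the threshold, beside 0.0564% of all genes, with adjusted p of 0.173 to 0.677, and 4 of the 7 had an unadjusted p under 0.05, beside 18.6%. DESeq2 called KLF6 alone of the 7 (adjusted p = 0.0440), beside 1.83% of the genes it adjusted, and limma 0, beside 0.009%. Without CEP replicate 1, edgeR called ID3, KLF6 and KLF10 of the 7 (adjusted p 0.0415, 0.0375 and 0.0487), when it also called 6.61% of all genes. With the GC trend removed, MYC's value was -0.10 and ID3's -0.20.

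With both agents against DMSO, MYC was 24.1% lower (log2 fold change -0.40, SE 0.0830, and -0.26 with the GC trend removed). ID1 was at 0.34 (SE 0.140, adjusted p = 0.167 by edgeR), KLF6 at 0.27 (adjusted p = 0.139), ID2 at -0.18, ID3 at -0.18, HES1 at -0.16, KLF10 at 0.15 and MYCN at -0.86 (SE 0.56, adjusted p = 0.388). MYC, MYCN and ID2 lay below every DMSO library and ID1 and KLF6 above, and without MYC 4 of 7 did not overlap, beside 28.7% of all genes. By edgeR 0 of these 7 were past the threshold, beside 1.64%, and 2 had an unadjusted p under 0.05, beside 21.4%. DESeq2 called 0 of the 7, beside 9.96% of the genes it adjusted, limma called 0, beside 0.045%, and edgeR called ID1 once the GC trend was removed (0.51, adjusted p = 0.0295), beside 1.19% of all genes.

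Between the groups that both had 4SU, CEP went with a log2 fold change of -0.42 in MYC (SE 0.0831), 0.36 in ID1, 0.22 in KLF6, 0.14 in KLF10, -0.13 in HES1, -0.19 in ID2, -0.27 in ID3 and -1.09 in MYCN (SE 0.56). MYC, MYCN and ID2 were below all 4SU libraries and ID1 above, and without MYC 3 of 7 did not overlap, beside 13.6% of all genes. By edgeR 0 of the 7 were past the threshold, beside 0.0451% (adjusted p 0.619 to 0.820), and 3 of the 7 had an unadjusted p under 0.05, beside 7.89%. DESeq2 and limma called 0 of these 7, beside 0.0421% and 0.009%. The comparisons with DMSO share its 3 libraries, and the pair with CEP+4SU share theirs, so their values stand side by side and are not independent.

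Whether 4SU itself went with the members was asked over 6 libraries with it and 6 without. MYC was at -0.06, ID1 at 0.06, ID2 at -0.04, ID3 at 0.12, HES1 at 0.08, KLF6 at -0.03 and KLF10 at -0.08 on the log2 scale, with MYCN at -0.53 (SE 0.38). The ranges overlapped in all 8, with 0 members apart beside 1.35% of all genes. By edgeR 0 of 8 were past the threshold (adjusted p 0.618 to 0.896), beside 0.558% of all genes, 0 had an unadjusted p under 0.05, beside 12.6%, and DESeq2 and limma called 0, beside 2.62% and 0.072%. For 4SU alone against DMSO the values ran from -0.03 in HES1 to 0.23 in MYCN, and edgeR, DESeq2 (with an adjusted p for 3 of the 8) and limma called 0, beside 0.00564%, 0.363% and 0.0135%, with 0 at an unadjusted p under 0.05, beside 6.5%, and 0 without overlap, beside 17.9%. MYC was at 0.03 there (SE 0.0827), within the spread of the libraries.

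A test of whether the change with CEP differed in the presence of 4SU gave 0 of 8 members past the threshold by edgeR, DESeq2 and limma, and 0 with an unadjusted p under 0.05, beside 0 and 2.63% of all genes. The difference was -1.52 in MYCN (SE 0.76, from 3 to 20 counts per library), -0.18 in MYC (SE 0.117) and 0.22 in HES1 (SE 0.230), with adjusted p of 1.00 in all 8.

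The pathways around the members were followed in lists chosen with earlier results of these data known. Over the 6 lists, 2 genes were past the threshold with CEP averaged over 4SU, HES5 and KLF3, and 5 with both agents against DMSO, of 124 genes in all. The shares over all genes were 0.276% and 1.64%. DESeq2 called 21 of the 106 it gave an adjusted p and 15 of 116, beside 14.6% and 9.96% of all the genes it adjusted, and the 21 do not include HES5, to which it gave no adjusted p. The counts by list that follow stand beside these shares and, for an unadjusted p under 0.05 with CEP, beside 24.3% of all genes. With 1 of the 6 libraries left out, the calls with both agents stood in 3 of 6 fits for HES5, in 1 of 6 for BOP1, SKIL and TGFB1, and in 0 of 6 for MLXIPL. Of 11 genes of the MYC-MAX network, 0 were past the threshold by edgeR with CEP (5 at an unadjusted p under 0.05, 3 by DESeq2, 0 by limma), with a median log2 change of -0.03 beside -0.01 for all genes. With both agents MLXIPL, the carbohydrate-responsive partner of MLX, fell by 0.60 (adjusted p = 0.0475), which was lost with the GC trend removed (-0.31, adjusted p = 0.309).

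Of 28 genes known as MYC targets, 0 were past the threshold by edgeR with CEP (9 at an unadjusted p under 0.05, 3 by DESeq2, 0 by limma), 17 were below 0, beside 51.1% of all genes, and their median was -0.06. Nucleophosmin NPM1 (0.16) and nucleolin NCL (0.07), named for their role, were among the 11 above 0, and the list ran from -0.31 to 0.16. With both agents against DMSO the median was -0.13 beside 0.00 for all genes, and the ribosome biogenesis factor BOP1 fell by 0.49 (adjusted p = 0.0449 by edgeR), which was lost with the GC trend removed (-0.17, adjusted p = 0.121). BOP1 went from 186 to 196 CPM in DMSO to 109, 144 and 154 CPM with both.

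Among 19 ID partners and BMP-SMAD genes, 0 were past the threshold by edgeR with CEP (5 at an unadjusted p under 0.05, 3 by DESeq2, 0 by limma) and the median was 0.06. The E protein gene TCF3, whose product the ID proteins bind, was at -0.17 (adjusted p = 0.180) and the inhibitory SMAD6 at -0.22 (adjusted p = 0.106).

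Of 24 Notch pathway, HES and HEY genes, 1 fell with CEP and 0 rose by edgeR, with 8 at an unadjusted p under 0.05 and a median of -0.10. DESeq2 called 1 higher (RBPJ) and 3 lower (HES4, JAG2 and NRARP) of the 16 it adjusted, and limma called 0. The gene that fell by edgeR was HES5, a repressor that like HES1 is switched on by Notch and RBPJ. It was at 8.84, 10.6 and 12.8 CPM in DMSO and 8.42, 8.08 and 7.98 CPM with 4SU, and at 6.97, 5.36 and 4.79 CPM with CEP and 6.12, 3.79 and 4.57 CPM with both. All 6 CEP libraries were below all 6 others, and its log2 fold change was -0.84 (SE 0.141, adjusted p = 0.0110 by edgeR). Leaving out any 1 library kept it past the threshold (-0.96 to -0.76, adjusted p 0.00338 to 0.0450). It was -0.56 with the GC trend removed (adjusted p = 0.0399), and limma with a pseudocount of 1 did not call it (adjusted p = 0.0568), nor did edgeR with the replicate block and the GC trend removed together (adjusted p = 0.0550). DESeq2 gave it no adjusted p. With both agents against DMSO HES5 fell by 1.16 (adjusted p = 0.0131). HES4, another gene of the family, was at 110 to 162 CPM without CEP and 70.1 to 124 CPM with it (-0.55, adjusted p = 0.0576 by edgeR), with its lowest values in the same libraries with fewest genes. RBPJ itself was at 0.17 (adjusted p = 0.0902 by edgeR).

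In the KLF and TGF-beta list, 1 of 19 tested genes rose with CEP and 0 fell by edgeR, with 9 at an unadjusted p under 0.05 and a median of 0.02. DESeq2 called 3 higher (KLF3, KLF12 and SKIL) and 1 lower (TGFB1), and limma called 0. KLF3, a CACCC-box repressor of the KLF family, was at 33.1, 34.9 and 35.6 CPM in DMSO and 29.6, 33.1 and 29.2 CPM with 4SU, and at 41.1, 48.4 and 42.3 CPM with CEP and 37.1, 42.5 and 39.6 CPM with both. The 6 libraries with CEP were above all 6 others. The log2 fold change was 0.36 (SE 0.0690, adjusted p = 0.0281 by edgeR), past the threshold in 3 of the 12 fits with 1 library left out (adjusted p up to 0.137) and not with limma (adjusted p = 0.123). With both agents the ligand gene TGFB1 fell by 0.54 (adjusted p = 0.0335) and the SMAD corepressor gene SKIL rose by 0.48 (adjusted p = 0.0339 by edgeR, and 0.109 with the GC trend removed). TGFB1 was below all DMSO libraries with each agent alone too. It was at 98.6 to 106 CPM in DMSO, 72.5 to 86.8 with 4SU, 68.3 to 92.5 with CEP and 56.2 to 76.7 with both. DESeq2 also called TGFB1 lower with 4SU averaged over CEP, beside 2.62% of the genes it adjusted. KLF11, the closest relative of KLF10, was at 0.08 with CEP (adjusted p = 0.525).

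**Figure D4:**
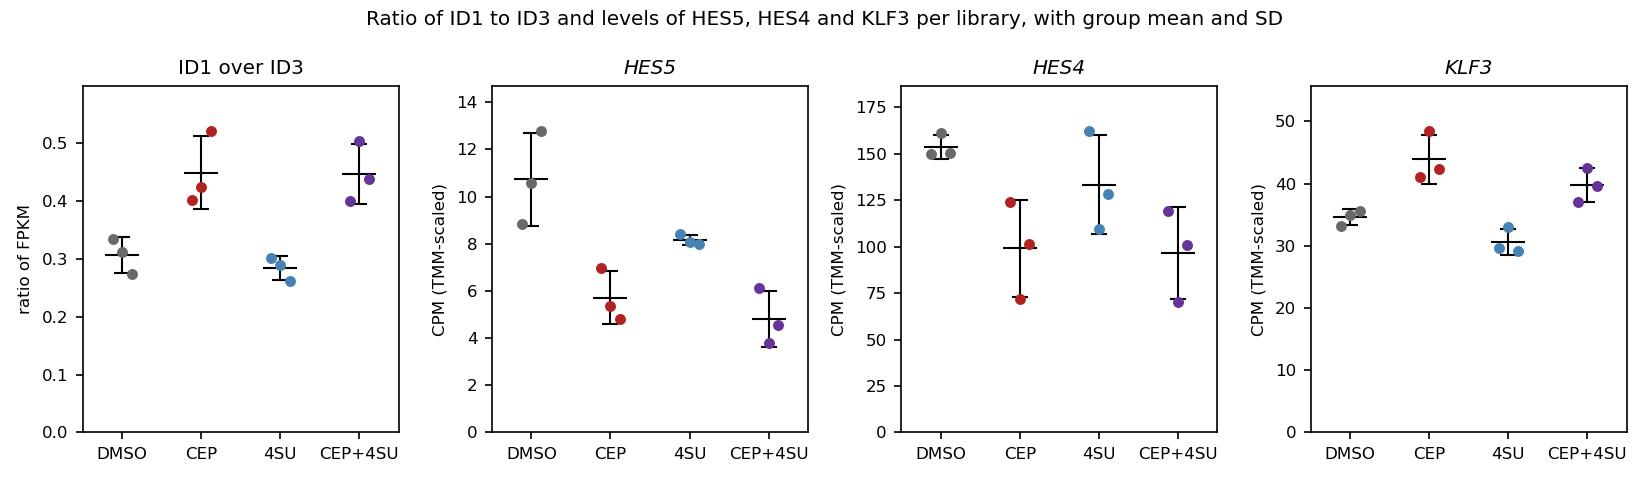
Ratio of ID1 to ID3 (FPKM over FPKM) and CPM (TMM-scaled) of HES5, HES4 and KLF3 (vertical, from 0) by group (horizontal), with 1 point per library and the group mean and SD in black. The 6 libraries with CEP lie above the 6 without for the ratio and for KLF3, below them for HES5, and overlap them for HES4.

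Among 22 factors of mRNA decay, 0 were past the threshold by edgeR with CEP (8 at an unadjusted p under 0.05, 4 by DESeq2, 0 by limma), and 20 of the 22 had a log2 change above 0, beside 48.9% of all genes, with a median of 0.09. Fewer were above 0 in single comparisons: 16 with CEP against DMSO, 15 with both agents against DMSO and 19 with CEP+4SU against 4SU. ZFP36L1, which binds AU-rich elements and recruits the deadenylase, was picked with its values in view. It was at 22.7 to 26.5 CPM without CEP and 28.6 to 36.3 CPM with it (0.35, SE 0.0763, adjusted p = 0.0507 by edgeR). These ranges did not overlap, beside 1.73% of all genes. Its highest values with CEP (36.3 CPM) and with CEP+4SU (32.1 CPM) were those of replicate 2, the libraries with fewest genes. IGF2BP1, which binds the MYC coding region, was at 0.07 (adjusted p = 0.441).

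The 5 genes whose log2 CPM followed MYC most closely over the 12 libraries, of 10327 with a mean of at least 10 CPM, were ZMYND19 (r = 0.942, rho = 0.944), ACSF2 (r = 0.938, rho = 0.881), SHANK3 (r = 0.915, rho = 0.916), FJX1 (r = 0.911, rho = 0.881) and GRK4 (r = 0.907, rho = 0.867). None of them is a member or a listed gene, and none lies on chromosome 8. These points share the treatment groups and the library preparation, and MYC's lower level with CEP, for which it was chosen, enters r. In the deviations from the group means r was 0.84, 0.75, 0.86, 0.90 and 0.92 in the same order, in genes picked for a high r. Of the 5, 1 was also among the top 5 by rho.

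Among the 28 pairs of members, r over the 12 libraries ran from -0.78 for MYC with KLF6 to 0.88 for KLF6 with KLF10. MYC and ID3 varied alike (r = 0.72), also in their deviations from the group means (r = 0.73). ID1 and ID3 had r = 0.05 over all libraries but 0.73 in the deviations, so that libraries of 1 group with more ID1 had more ID3, while their fold changes with CEP had opposite signs. These are descriptions over points that share groups, depth and the CEP replicate 2 and CEP+4SU replicate 2 libraries.

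**Figure D5:**
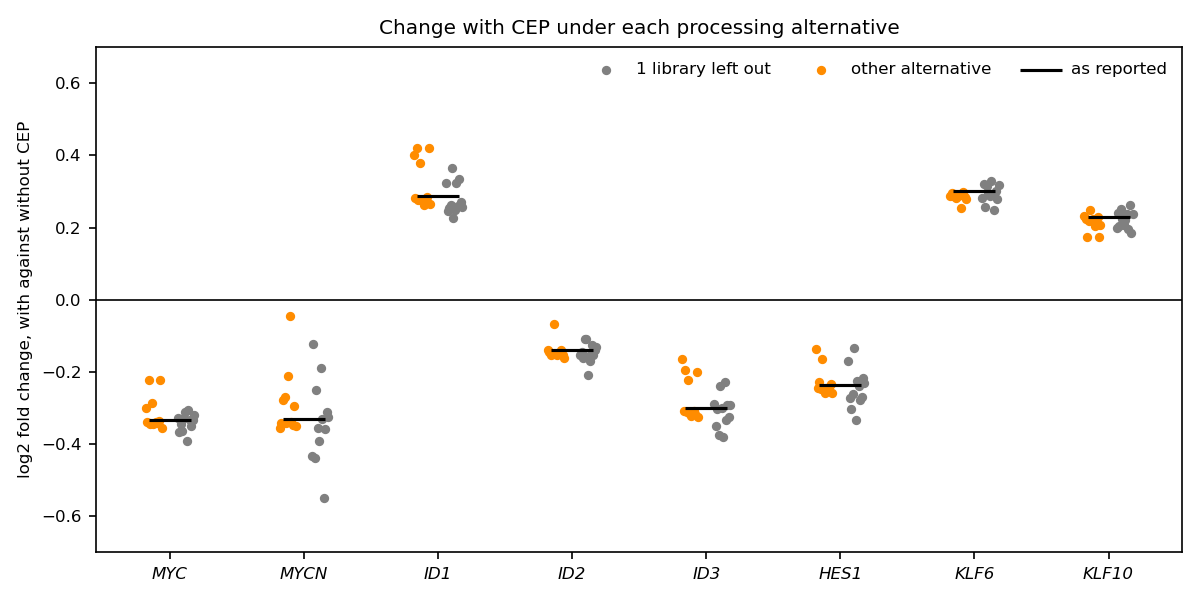
Log2 fold change with against without CEP (vertical) of each regulator under every alternative way of processing, with the value as reported as a black bar, fits without 1 library in grey and other alternatives in orange. No member changes sign, and MYCN, with the fewest counts, spreads the most.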

How the data were processed

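Poly(A) RNA of 12 libraries in 4 groups of 3 was sequenced. Gene counts were made by the authors with HISAT2 2.0.5 and featureCounts 1.5.0-p3 (versions from the submitters' processing notes) and deposited as whole numbers without normalization. The deposited FPKM values divide those counts by gene length and by an adjusted library size, which was 0.981 to 1.03 of the total count. A deposited table of group means was not used. The 12 columns matched the labels.

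Counts (58735 genes, 16569114 to 24644734 per library) were filtered with filterByExpr (minimum 10, total 15), scaled by TMM and fitted in 1 quasi-likelihood model of the 4 groups in edgeR 4.0.16 (prior count 0.125), with Benjamini-Hochberg adjustment over 17729 genes and a threshold of 0.05. SE is the size of the log2 fold change over the square root of F. Comparisons averaged over the other agent used all 12 libraries. p-values measure the spread between these libraries, which may be technical. Alternatives were DESeq2 1.42.0, limma 3.58.1 on log2(FPKM + 1) and log2(FPKM + 0.1), other scalings and filters, GC and length trends removed (lowess, span 0.3), a replicate block, and each library left out. The block together with the GC trend, and the alternatives for list genes past the threshold, were added after seeing the data. Trend fits used GENCODE 29 transcripts (58676 genes with a value). R was 4.3.3, and Python 3.11.15.

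The members and gene lists were chosen with earlier results of these data known. Named were all members, list genes past the threshold (at most 4 per list), up to 2 more per list for their role, the 5 genes most like MYC, and genes overlapping a member. HES4 and ZFP36L1 were picked with their values in view. On simulated counts, 74.0% of 96 genes changed by 1 and 55.6% of 99 changed by 0.5 (log2) were called in the comparison of CEP averaged over 4SU, and 9 of 17142 unchanged genes. Each gene was drawn independently, without deviations that real libraries share. The members' changes in that comparison ran from -0.33 to 0.30, smaller than those simulated. These shares are therefore not detection rates for the members. A further marker of the list of other cell types is not reported here.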

Additional observations from a re-analysis of the deposited data

How the results depend on the processing

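Of 1176 recomputed values for the members, 1098 kept direction and, where tested, side of the threshold (MYC with CEP moved by no more than its SE), 29 newly passed it, 40 changed sign and 9, all of MYC with CEP and without a test, moved by more than their SE. None of the values tested was past the threshold as reported, so none could lose it. Members other than MYC past the threshold with CEP averaged over 4SU numbered 0 as reported, 3 without the low-count filter, 2 with the GC trend removed, 1 without CEP replicate 2 and CEP+4SU replicate 2, 3 with DESeq2, and 0 to 3 with 1 library left out (3 without CEP replicate 1, 2 without CEP+4SU replicate 1). CEP against DMSO gave 0 as reported, 2 without the filter (ID3 and KLF6), 1 with DESeq2 and 0 to 3 with 1 library left out, again 3 without CEP replicate 1. CEP+4SU against DMSO gave 0, then 1 with the GC trend removed. List genes numbered 2 (21 with DESeq2, 4 with the GC trend removed) and 5 (15 with DESeq2). Over all genes, the count with CEP averaged over 4SU was 49 as reported, 1474 with DESeq2, 1448 without the filter, 17 and 25 with limma, 2171 without CEP replicate 1 and 1131 without CEP+4SU replicate 1, and with both agents against DMSO it was 290 and ranged from 10 to 1667. Of the 5 genes most like MYC, 1 stayed by rho.

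Replicate numbers were not used to pair the samples in the fit as reported. Of 18 same-number pairs of libraries, 1 had a correlation of deviations over 0.1 (-0.047 to 0.14). Of 36 pairs between groups with different numbers, 0 did (-0.16 to 0.055). Whether libraries of the same number share a batch was not tested. With the replicate block, members other than MYC past the threshold were 4 with CEP averaged (ID1, ID3, KLF6 and KLF10) and 2 with CEP against DMSO (ID3 and KLF6). With block and GC trend it was 1, ID1, both with CEP averaged and with CEP+4SU against DMSO. All genes past the threshold with CEP averaged were 2269 with the block.

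Values as reported that changed sign included 0.23 in MYCN (4SU against DMSO) and 0.22 in HES1 (interaction). For 4SU against DMSO, ID1 was 0.012 with upper-quartile scaling, 0.041 by library size, 0.0034 with the length trend removed, 0.0486 with the GC trend removed and 0.0487 with the block too. HES1 was 0.027 by library size and 0.00059 with the length trend removed, and KLF10 was -0.0037 with the GC trend removed and -0.00022 with the block too. With 4SU averaged, KLF6 was 0.012 and ID2 0.00089 by library size, and HES1 was -0.024 without the replicate 2 pair, as it was -0.013 in the interaction. ID2 with CEP against DMSO was 0.0062 with the length trend removed. With 1 library left out, ranges that crossed 0 for 4SU against DMSO were MYC -0.0051 to 0.074, MYCN -0.21 to 0.43, ID1 -0.11 to 0.085, ID2 -0.011 to 0.029, HES1 -0.18 to 0.085, KLF6 -0.017 to 0.11 and KLF10 -0.069 to 0.089. With 4SU averaged they were ID1 -0.018 to 0.11, ID2 -0.072 to 0.020, HES1 -0.022 to 0.17 and KLF6 -0.064 to 0.015. In the interaction they were ID1 -0.023 to 0.26, ID2 -0.17 to 0.033, ID3 -0.077 to 0.20 and HES1 -0.0056 to 0.40, and HES1 was -0.25 to 0.015 for CEP+4SU against 4SU. The causes were not tested. The averaged comparisons have no separate fit of only the groups compared, and MYCN drops out with 10 counts required in every library.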
